A study of Drosophila melanogaster with 3 samples.

Results

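Small nuclear RNA (snRNA) genes are the 32 genes that the Ensembl annotation of the fly genome gives the biotype snRNA, out of 18277 annotated genes on the chromosome arms. Their binding by chif-eGFP was read from chromatin immunoprecipitation of whole Drosophila melanogaster embryos of both sexes, aged 0 to 24 h. The embryos came from a transgenic line that makes a GFP fusion of chiffon (chif), named for its transcript chif-RB, with GFP at the C-terminus. The note on the fusion names chif-RB for replicate 1 only. An anti-GFP antibody recovered the sonicated chromatin, of 200 to 800 bp, in 3 biological replicates of 1 group, and there was no second condition. A gene was called bound when the summit of a region in the authors' thresholded list of 5035 regions lay within 500 bp of its transcription start site (TSS). The list was made from the pooled reads of the replicates. Bound therefore means that such a region was listed, since neither an untagged line nor read coverage was analysed here. Read counts are not in the lists, so the depth behind a region is unknown.

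Chiffon is related to Dbf4, which switches on the Cdc7 kinase when origins of replication fire. A separate stretch of the chiffon product works with the histone acetyltransferase Gcn5, and which of these products carried the tag was not determined here. The snRNAs are the RNA cores of the spliceosome. U1 pairs with the 5′ splice site, U2 with the branch point, and U4, U5 and U6 enter together as the tri-snRNP, while U11, U12, U4atac and U6atac serve the minor spliceosome. U7 guides the processing of histone pre-mRNA, and 7SK RNA holds the elongation factor P-TEFb inactive. RNA polymerase II (Pol II) transcribes most of these genes, and RNA polymerase III (Pol III) transcribes U6, U6atac and 7SK. In flies both kinds carry a proximal sequence element A upstream of the start, which the SNAPc complex binds, and the Pol III kind adds a TATA box.

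By symbol, 25 members were of the Pol II type (5 U1, 6 U2, 3 U4 and 7 U5 genes and 1 each of U7, U11, U12 and U4atac), and 3 were U6 genes. The remaining 4 were U6atac, 7SKa, 7SKb and the gene named LU, for which no role is given here. The members were also searched for the promoter element. Its core letters, searched as ATTCNCAA on the gene strand between 75 and 35 bases before the start, were present in 31 of the 32 members (96.9%), and 7SKb lacked them. The same search found them at 44 of 19276 protein-coding TSSs (0.228%) and at 112 of 23697 TSSs of all genes (0.473%). These letters were chosen after the members' sequences had been read, so the share in members is a description of how alike the promoters are. The core began 65 to 56 bases before the start, with a median of 59, and read ATTCCCAA in 26 members and ATTCTCAA in 5.

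The promoters of the 6 bound Pol II-type genes are shown because all share that core. Some of them, such as U1:21D, U2:34ABb and U4:39B, also share letters just after it. Each runs from 70 bases before the TSS to the first 12 transcribed bases, 5′ to 3′ on the gene strand, with the core in capitals, from the RefSeq Release 6 genome.
snRNA:U1:21D: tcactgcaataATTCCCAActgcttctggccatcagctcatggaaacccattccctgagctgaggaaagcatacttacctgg
snRNA:U1:95Ca: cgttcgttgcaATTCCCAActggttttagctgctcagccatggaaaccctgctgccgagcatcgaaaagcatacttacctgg
snRNA:U2:34ABb: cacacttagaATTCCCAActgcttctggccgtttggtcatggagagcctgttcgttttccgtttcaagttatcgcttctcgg
snRNA:U4:39B: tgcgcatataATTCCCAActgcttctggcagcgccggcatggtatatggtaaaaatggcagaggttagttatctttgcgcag
snRNA:U5:35D: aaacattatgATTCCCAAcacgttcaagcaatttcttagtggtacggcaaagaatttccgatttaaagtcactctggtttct
snRNA:U5:63BC: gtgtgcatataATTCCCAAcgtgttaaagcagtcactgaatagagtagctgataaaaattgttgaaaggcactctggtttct

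The 3 U6 genes are shown because their transcribed sequences are identical while their promoters are not, and capitals mark the core and then the TATA run.
snRNA:U6:96Aa: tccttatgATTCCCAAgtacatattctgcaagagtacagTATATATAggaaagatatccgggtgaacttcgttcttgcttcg
snRNA:U6:96Ab: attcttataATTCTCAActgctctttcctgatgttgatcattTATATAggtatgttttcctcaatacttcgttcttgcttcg
snRNA:U6:96Ac: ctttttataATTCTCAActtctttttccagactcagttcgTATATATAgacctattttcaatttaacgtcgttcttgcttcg

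The Pol III-type genes 7SKa and U6atac are shown with their TATAAA in capitals after the core.
snRNA:7SKa: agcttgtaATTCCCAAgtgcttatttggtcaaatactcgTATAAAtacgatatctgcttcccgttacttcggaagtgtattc
snRNA:U6atac: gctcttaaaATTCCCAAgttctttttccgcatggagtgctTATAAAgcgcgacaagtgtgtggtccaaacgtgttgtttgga

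Among unbound genes, U2:34ABa is shown as the near copy of the bound U2:34ABb, U7 as a single-copy gene, and 7SKb as the member with no core in this window and so no capitals.
snRNA:U2:34ABa: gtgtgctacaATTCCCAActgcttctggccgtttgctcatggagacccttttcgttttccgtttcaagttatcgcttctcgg
snRNA:U7: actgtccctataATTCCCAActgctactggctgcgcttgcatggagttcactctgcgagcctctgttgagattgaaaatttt
snRNA:7SKb: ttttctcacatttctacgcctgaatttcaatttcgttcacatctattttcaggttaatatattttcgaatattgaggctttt

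A TATA match, either TATAAA or TATATA between 45 and 15 bases before the start, was found in 0 of 25 Pol II-type genes, in 3 of 3 U6 genes, and in U6atac and 7SKa. On the gene strand in that window TATAAA occurred at 7.76% and TATATA at 3.48% of protein-coding TSSs, and a stretch such as TATATATA counts once. The core was present in 9 of 9 bound members and in 22 of 23 unbound members. Nearly all members hold the core, whose letters were chosen from their sequences, so this comparison could not separate bound from unbound genes. From 250 bases before to 50 after the start, on both strands, 0 of 32 members held the DRE letters TATCGATA, against 7.98% of protein-coding TSSs. The E-box letters CAGCTG were in 1 member (3.12%), against 17.9% of protein-coding TSSs, and GAGAG was in 9 members (28.1%), against 33.1%.

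Chif-eGFP was listed at 9 of the 32 snRNA genes (28.1%), through 8 distinct regions, against 3132 of all 18277 genes (17.1%). Among the members with no protein-coding TSS within 500 bp, 8 of 29 were bound (27.6%), against 156 of 3613 other non-coding genes with no such neighbour (4.32%). The share of snRNA genes was thus above both backgrounds as a count, but it rests on 8 regions and was given no test. When replicate 1 or replicate 3 was left out, so that a region had to be listed among the strongest of both others, the count was 4 of 32 (12.5%), against 10.5% and 10% of all genes. Without replicate 2 it was 9 of 32, against 13.8%. In each case the regions still came from the list made with the pooled reads of all 3 replicates, and only the support asked for changed. Protein-coding genes were bound in 2879 of 13968 cases (20.6%), or 12.7% where no other coding TSS lay within 500 bp. Genes for transfer RNAs, small Pol III transcripts like U6, were bound in 15 of 290 cases (5.17%), and genes for small nucleolar RNAs, which guide the modification of other RNAs, in 9 of 269 (3.35%).

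**Figure D1:**
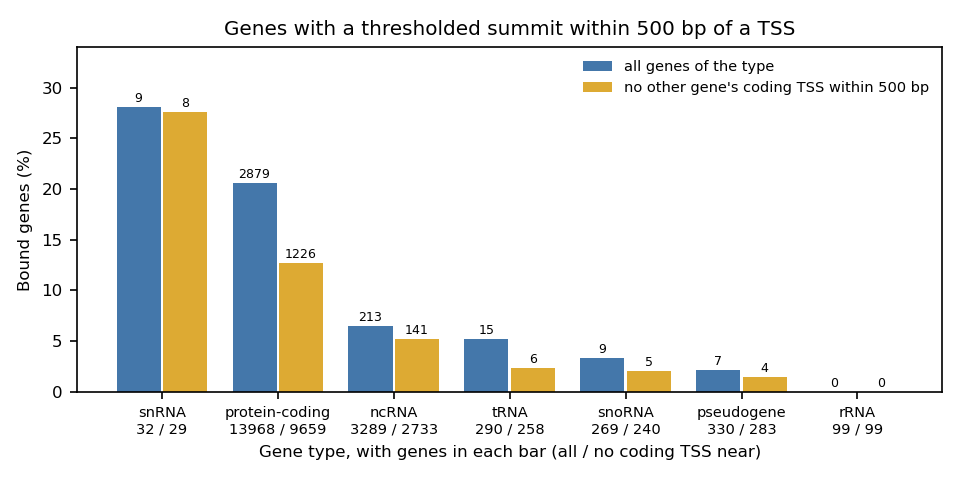
Share of genes of each annotated type with a thresholded summit within 500 bp of a TSS (%), for all genes and for genes with no protein-coding TSS within 500 bp, with the numbers of genes under the bars. The snRNA genes reach 28.1% and 27.6%, above the 20.6% and 12.7% of protein-coding genes.

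Of the Pol II-type genes 6 of 25 were bound (24%), each by a region of its own, and of the U6 genes 2 of 3 (66.7%), by 1 region that they shared. With replicate 1 or replicate 3 left out, 2 of 25 Pol II-type genes (8%) were bound, below the 10.5% and 10% of all genes, and the U6 genes stayed at 2 of 3. The U6 genes lie within 1 cluster at 96A and are not independent of each other, so the shares of both classes were set side by side without a test. By family, chif-eGFP was listed at 2 of 5 U1 genes, 1 of 6 U2 genes, 1 of 3 U4 genes and 2 of 7 U5 genes. The genes for U7, U11, U12 and U4atac were not bound, and among the remaining members 7SKa was bound while 7SKb, LU and U6atac were not. By chromosome arm the bound genes numbered 4 of 16 on 2L, 1 of 4 on 3L, 4 of 10 on 3R and 0 of 2 on X, where 16.9%, 17.3%, 19% and 17.3% of all genes were bound.

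The U6 region was the strongest at any snRNA gene. It spanned chr3R:24557007-24557182 (dm6), with its summit at position 24557102, rank 822 of 5035 and a signal of 358, the authors' own score per region. It lies between the genes, 410 bp downstream of the TSS of U6:96Ab (FBgn0004189, chr3R:24556692-24556798, plus strand) and 113 bp upstream of that of U6:96Ac (FBgn0004190, chr3R:24557215-24557321, plus strand). In replicates 1, 2 and 3 the matching summit ranked 948, 2095 and 593 in that replicate's own list and lay 0, 23 and 4 bp from the pooled one. The remaining copy, U6:96Aa (FBgn0004188, chr3R:24556088-24556194, plus strand), had no summit within 500 bp in the pooled list of 30000 regions or in replicates 2 and 3. Replicate 1 placed a summit of rank 13963 and signal 23.9 at the first base of U6:96Aa. The thresholded summit thus lay in none of these identical genes, and the calls differ by distance from it. U6:96Aa lay 1014 bp from that summit, and within 250 bp only U6:96Ac was bound among them.

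Next in rank came U1:95Ca (FBgn0004185, chr3R:23859467-23859630, minus strand), whose RNA recognises 5′ splice sites. Its region, chr3R:23859383-23859792, ranked 1834 with a signal of 223, and its summit lay 42 bp downstream of the TSS. Replicates 1 and 3 listed it at ranks 1373 and 2026, and replicate 2 listed none. U1:21D (FBgn0003916, chr2L:901491-901654, minus strand) had the region chr2L:901299-901708 at rank 2864, signal 163, with its summit 150 bp downstream. It ranked 2141 and 2605 in replicates 1 and 3 and was again missing in replicate 2. Both bound U1 genes thus lacked a region in replicate 2, and U1:82Eb, another U1 gene, ranked 5114 in the pooled list with a signal of 105, just under the lowest thresholded signal of 106. U1:82Eb ranked 3189 in replicate 1, 7029 in replicate 2 and 12176 in replicate 3.

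U2:34ABb (FBgn0004192, chr2L:13215839-13216030, plus strand) was the bound U2 gene. Its region, chr2L:13215827-13216236, ranked 2436 with a signal of 184, and its summit lay 193 bp downstream of the TSS, 2 bp past the end of the gene. It ranked 1621 in replicate 1 and 2071 in replicate 3, with no summit in replicate 2. U4:39B (FBgn0003930, chr2L:21215036-21215178, minus strand), whose RNA pairs with U6 in the tri-snRNP, was listed in all 3 replicates. Its region, chr2L:21214881-21215290, ranked 2308 with a signal of 191, its summit lay 92 bp downstream, and the replicate ranks were 2247, 3755 and 3119.

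Both bound U5 genes encode the RNA that holds exon ends together during splicing. U5:63BC (FBgn0003938, chr3L:3090801-3090923, plus strand) had the region chr3L:3090671-3091080 at rank 3345 and signal 146, the lowest of the 8, with its summit 75 bp downstream. It ranked 2401 in replicate 1 and 4355 in replicate 3, and replicate 2 listed none. U5:35D (FBgn0003936, chr2L:15751557-15751682, minus strand) was called through the region chr2L:15750982-15751391, rank 2055 and signal 208, whose summit lay 495 bp downstream of its TSS. That is the call nearest to the distance limit, and the nearest gene outside the limit was U5:38ABb at 907 bp. The U5:35D region ranked 1679, 1943 and 2588 in the replicates, but in replicates 1 and 3 its summit fell more than 500 bp from the TSS.

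7SKa (FBgn0065099, chr3R:7474553-7474996, minus strand) was the bound member outside both classes. Its region, chr3R:7474601-7475010, ranked 3078 with a signal of 155, and the summit lay 190 bp downstream, inside the gene of 444 bp. Replicates 1 and 3 ranked it 2815 and 2819, and replicate 2 ranked it 19329 of 30000. 7SKb, of 46.9% identity to 7SKa, had no summit within 500 bp in any list and lay 45717 bp from the nearest thresholded one.

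**Figure D2:**
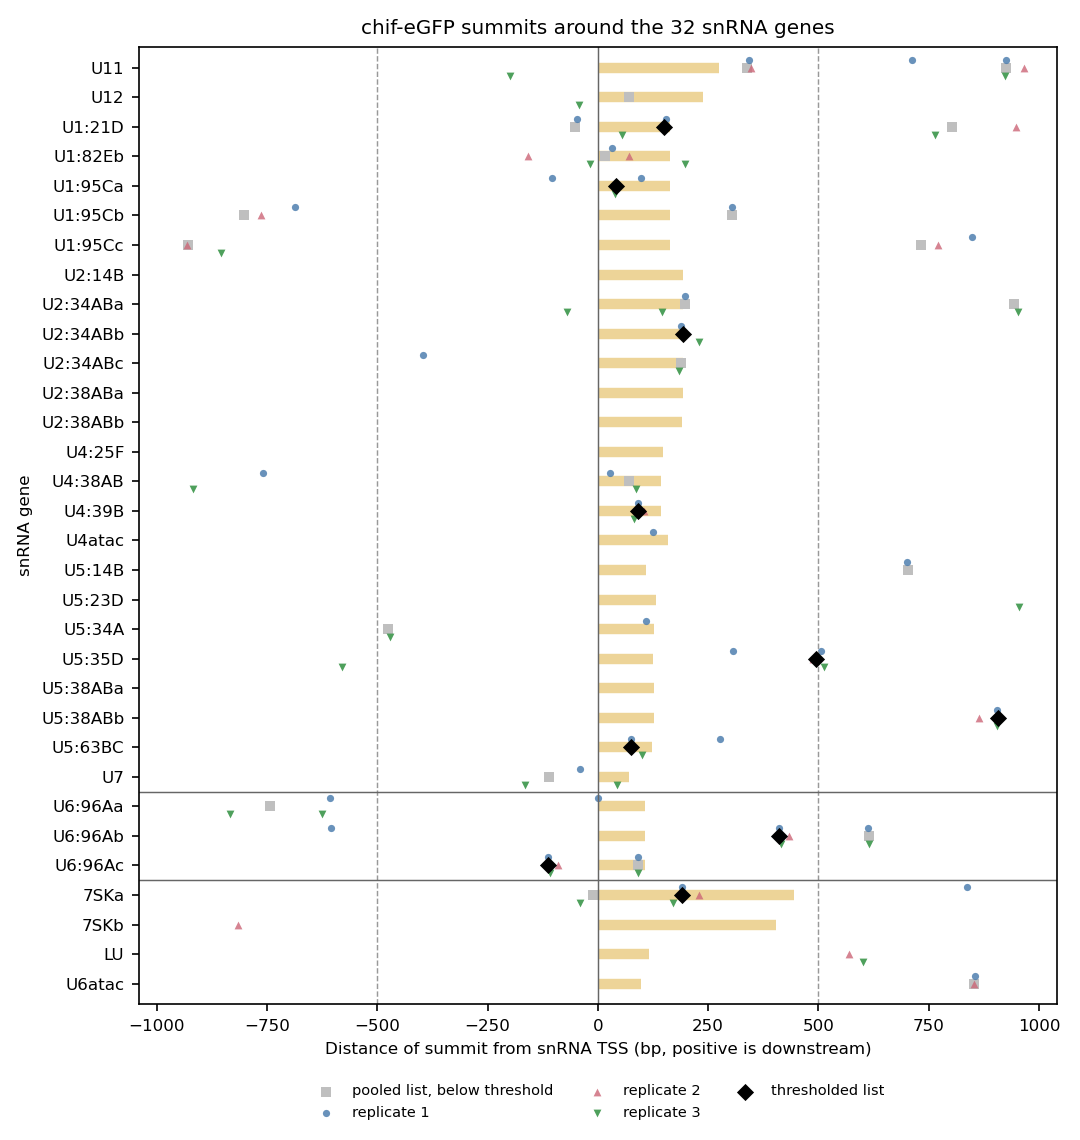
Distance of every listed summit from the TSS of each of the 32 snRNA genes (bp, positive is downstream), by list, with the 500 bp limits. Summits of U6:96Ab at 410 bp and of U6:96Ac at -113 bp are the same summit.

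The 8 regions sat in the middle of the list. Their ranks ran from 822 to 3345 with a median of 2372 of 5035, and their signals from 146 to 358 with a median of 187, against 106 to 3635 with a median of 179 over all thresholded regions. A region is called backed here when a replicate's own summit, among its 5035 of highest signal, lay inside it. All 3 replicates backed 3 of the 8 regions (37.5%), at U6:96Ab and U6:96Ac, U5:35D and U4:39B, against 55.9% of all thresholded regions. The other 5 (62.5%) were backed by replicates 1 and 3 and not by replicate 2, and exactly 2 replicates backed 31.5% of all thresholded regions. Replicate 1 backed 8 of 8 regions and replicate 3 likewise, against 84.9% and 88.4% of all thresholded regions. Replicate 2 backed 3 of 8 (37.5%), against 69.5%. The calls at both U1 genes, U2:34ABb, U5:63BC and 7SKa therefore rest on replicates 1 and 3.

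**Figure D3:**
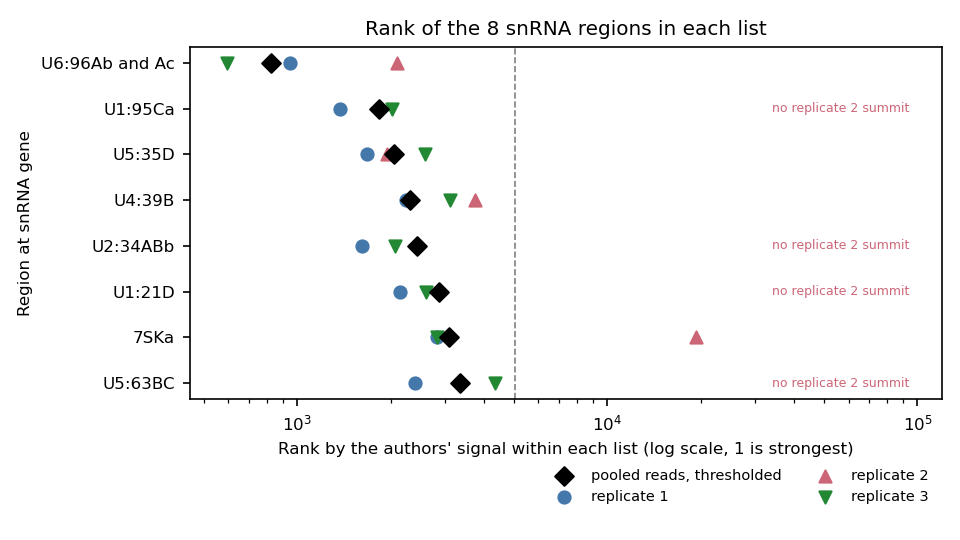
Rank of each of the 8 snRNA regions (log scale, 1 is strongest) in the pooled list and in the lists of replicates 1, 2 and 3. The U6 region is the strongest at rank 822, and 4 regions have no summit in replicate 2.

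Counted in each replicate's own 5035 regions of highest signal, 9, 4 and 8 of the 32 members had a summit within 500 bp in replicates 1, 2 and 3, which is 28.1%, 12.5% and 25%. The mean was 21.9% ± 8.27 (SD, n = 3). Over all genes the shares were 17.6%, 13.4% and 17.4% in the same order, so the snRNA share was above the background in replicates 1 and 3 and below it in replicate 2. U4:39B, U6:96Ab and U6:96Ac had such a summit in every replicate. In the full lists of 30000 regions, 19, 7 and 16 members (59.4%, 21.9% and 50%) had any summit within 500 bp, against 46.9%, 30.8% and 48.7% of all genes.

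The authors' threshold cut through the snRNA genes. In the pooled list before that threshold 18 of 32 members (56.2%) had a summit within 500 bp, against 46.5% of all genes. By class these were 15 of 25 Pol II-type genes and 2 of 3 U6 genes. Of the 23 unbound members 9 had such a weaker summit. After U1:82Eb the next were U4:38AB at rank 8860 and signal 67.9, and U7 at rank 10418 and signal 60. U11, whose RNA recognises the 5′ splice site of minor introns, ranked 16695, and U12, which pairs with their branch point, ranked 18203. U4atac and U6atac, their partners in the minor spliceosome, had no pooled summit. No list held a summit within 500 bp of 12 members.

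The unbound members lay 907 to 45717 bp from the nearest thresholded summit. The nearest 5 were U5:38ABb at 907 bp, U6:96Aa at 1014 bp, U2:38ABa at 1516 bp, U4atac at 3366 bp and U2:34ABa at 3916 bp. Members often stand in clusters. With TSSs chained within 10 kb, 7 clusters held 18 members, 3 of them bound. The other 14 members stood alone, 6 of them bound. All genes, not split in this way, were bound at 17.1%. Of the 3 bound members in clusters, 2 are U6 genes that share 1 summit. Of the 6 bound lone members, 1 was called through a summit nearer to a protein-coding TSS. A difference between clustered and lone members was not tested. The cluster at 38AB, with 5 U2, U4 and U5 genes in an intron of sick, had no bound gene.

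Bound genes were rarely inside other genes. Of the 16 members that lay within a protein-coding gene, all without overlap with its exons, 1 was bound (6.25%), which was U4:39B in Atg18b. Of the 16 that did not, 8 were bound (50%). The split was 1 of 13 against 5 of 12 among the Pol II-type genes, and it was made after the values had been seen. Members share hosts and summits: 5 of the inside members lie in sick, and the bound U6:96Ab and U6:96Ac share 1 summit. Among other non-coding genes 73 of 1646 inside a protein-coding gene (4.43%) and 171 of 2631 outside one (6.5%) were bound. In the pooled list before the threshold 6 of the 16 inside members (37.5%) and 12 of the 16 outside (75%) had a summit within 500 bp, against 25.8% and 28.9% of other non-coding genes.

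At most bound snRNA genes the strongest summit lay downstream of the start. The strongest summit of the 9 bound members ran from -113 to 495 bp from the TSS with a median of 150, and 8 of 9 (88.9%) were downstream. At the 2879 bound protein-coding genes the median was -123, with quartiles of -214 and -56, and 12.2% were downstream. At the 156 bound other non-coding genes with no coding TSS near, the median was -90 and 38.5% were downstream. The 6 Pol II-type genes gave 42 to 495 bp with a median of 121, all downstream, and the U6 pair gave -113 and 410 bp from 1 summit. The 495 bp is that of U5:35D, whose summit also lay 109 bp upstream of the TSS of the coding gene ND-B17. In the replicates' own top regions 8 of 9 members were downstream in replicate 1, 3 of 4 in replicate 2 and 7 of 8 in replicate 3. The shares of protein-coding genes were 16.6%, 12.2% and 14.2%. The 4 members in replicate 2 were U4:39B at 104 bp, U5:35D at 487 bp, and U6:96Ab and U6:96Ac at 433 and -90 bp from 1 summit. Replicate 2 thus says little about the side. In the pooled list before the threshold 15 of 18 members (83.3%) had the strongest summit downstream, against 28.6% of protein-coding genes.

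**Figure D4:**
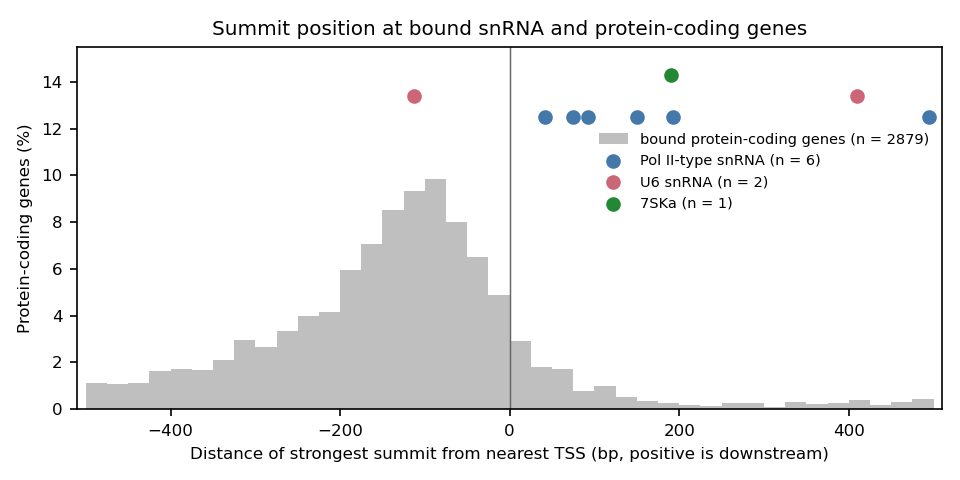
Distance of the strongest thresholded summit from the nearest TSS (bp, positive is downstream) for the 9 bound snRNA genes, as marks, and for the 2879 bound protein-coding genes, as a histogram (%). The snRNA marks lie mostly right of the start (median 150 bp), and the coding genes mostly left of it (median -123 bp). The U6 marks at -113 and 410 bp are 1 summit. The summit of the U5:35D mark at 495 bp also lay 109 bp upstream of the ND-B17 TSS.

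The summit lay inside the snRNA gene itself for 5 of the 9 bound members, U1:21D, U1:95Ca, U4:39B, U5:63BC and 7SKa. The element core lay inside the region for 4 members, U1:95Ca, U4:39B, U5:63BC and U6:96Ac, and its start was 52 to 555 bp from the summit over the 9. The sequence around 2 summits is shown to set these places side by side: the U6 summit lies between genes, and that of U1:95Ca lies within the gene. Each window is 101 bases on the plus strand with the summit base in capital, and they cover chr3R:24557052-24557152 and chr3R:23859538-23859638.
snRNA:U6:96Ab: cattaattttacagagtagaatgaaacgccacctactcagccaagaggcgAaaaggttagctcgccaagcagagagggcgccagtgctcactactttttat
snRNA:U1:95Ca: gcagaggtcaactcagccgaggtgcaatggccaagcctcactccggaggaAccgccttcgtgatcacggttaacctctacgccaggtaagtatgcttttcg

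Within 100 bp of the 8 summits on both strands, the element core was found at 1, against 4.29% of all thresholded regions. TATAAA was at 3, against 32.8%, and GAGAG at 3, against 22.1%. The DRE letters and the E-box letters were at 0 of the 8, against 3.67% and 8.54%.

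The snRNA genes are repeated in the genome, and this bears on where a read can be placed. Identity within the U6 genes was 100%, within the U1 genes 98.2% to 100%, within the U2 genes 98.4% to 100%, within the U5 genes 78.3% to 96.1% and within the U4 genes 73.8% to 94.4%. The share of 31-base words that occur once in the genome was 0% within the gene for 5 of the 9 bound members, U1:21D, U1:95Ca, U2:34ABb, U6:96Ab and U6:96Ac. It was 39.6% in U5:35D, 47.8% in U4:39B, 35.5% in U5:63BC and 100% in 7SKa. In the 250 bp before and after the gene it was 100% for all 9, while the 250 bp after the gene ran from 0% to 100% in unbound members, at 0% in U2:38ABa and U2:38ABb and 12.7% in U2:34ABc. Thus the flanks of every bound gene were unique while most of the genes were not. Unbound members were mostly alike in their flanks, with 20 of 23 at 100% upstream and 19 of 23 at 100% downstream.

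Of the 8 regions, 5 held words that recur, with 53.9% to 84.5% of their words unique, against 82 of all 5035 thresholded regions (1.63%). The bound members had a median of 0% unique words within the gene, and the unbound members a median of 37.1%, with 4 at 0% and 8 at 100%. Both sets thus spanned 0% to 100%. Whether reads that match several places were kept is not given in the sources used here, and the part of repeated sequence in the place or the strength of these summits was not tested. The U6 and 7SKa regions and that of U5:35D were unique throughout.

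**Figure D5:**
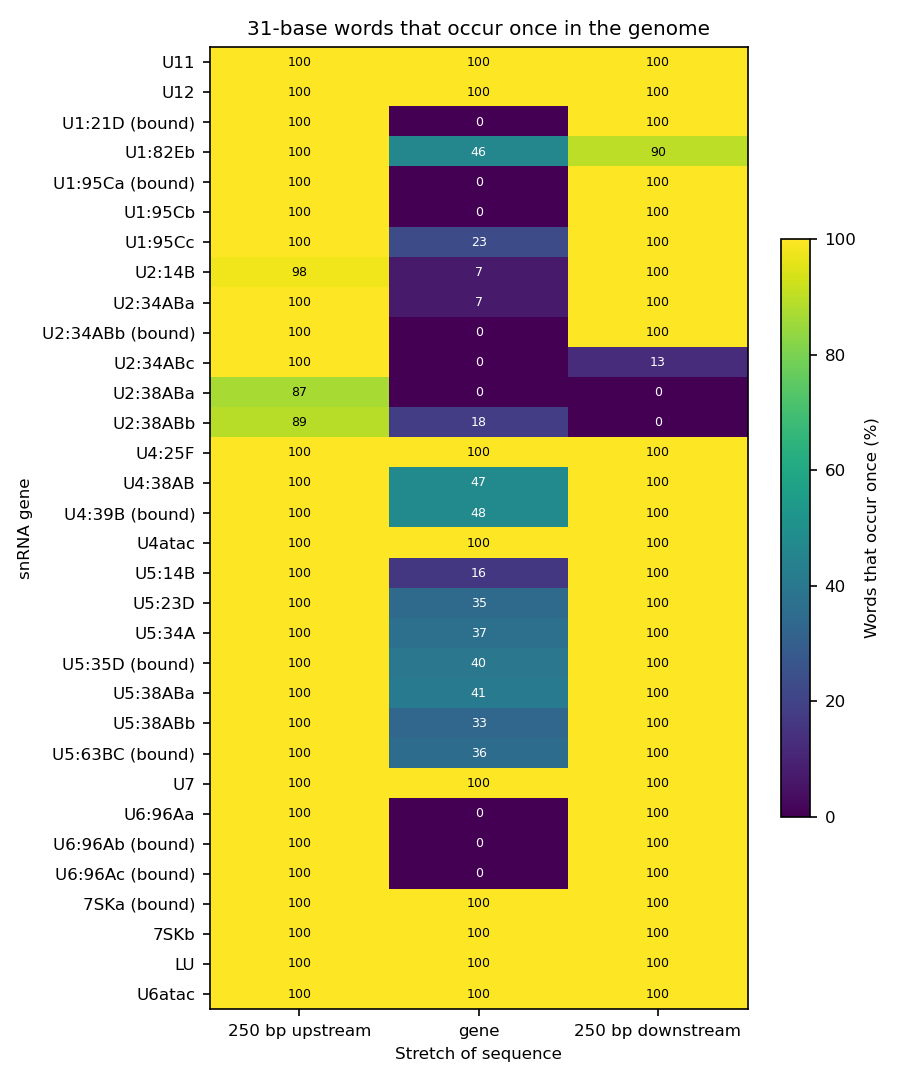
Share of 31-base words that occur once in the genome (%) in the 250 bp upstream, the gene and the 250 bp downstream of each snRNA gene, bound genes marked. Upstream shares are 86.8% to 100%, and the genes of 5 bound members are at 0%. Downstream shares are 100% for bound members and 0% to 100% for unbound members, of which 19 of 23 are at 100%.

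Protein-coding starts were near few members. The distance from an snRNA TSS to the nearest protein-coding TSS ran from 302 to 30422 bp with a median of 3250 bp. It was within 500 bp for 3 members: U2:34ABa with CG15482 at 302 bp, U6atac with CG42819 at 393 bp and U2:34ABb with kek4 at 489 bp. Of these only U2:34ABb was bound, and kek4 (FBgn0032484), which encodes a leucine-rich repeat protein, was not. The summit of U5:35D is a different case. It lay 109 bp upstream of the TSS of ND-B17 (FBgn0001989, minus strand), which encodes a subunit of mitochondrial complex I and was itself bound, and 495 bp from the U5:35D TSS. With summits assigned only where no protein-coding TSS was nearer, 8 of 32 members (25%) remained bound, against 12.7% of all genes, and U5:35D was the one left out. No other non-coding gene had its TSS within 500 bp of the 8 summits.

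Genes whose products make, process or carry snRNAs were counted in the same way. Of 75 listed genes 73 were matched, and 25 were bound (34.2%), against 20.6% of all protein-coding genes. The listed genes were not split by coding neighbours. Protein-coding genes were bound at 38.4% with another coding TSS within 500 bp and at 12.7% without one. Among factors for the initiation and elongation of snRNA transcription 4 of 11 were bound. The strongest were Bdp1 at rank 79 with a signal of 1063, Brf at 189 with 742, both parts of the Pol III factor TFIIIB, and Ice1 at 1186 with 294, a subunit of the little elongation complex. Ice2 and Pbp45, a SNAPc subunit, were not bound. The summits of Bdp1 and Brf lay 69 and 144 bp upstream of their starts.

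Integrator, the complex that cleaves the 3′ ends of Pol II snRNAs, had 8 of 14 subunits bound (57.1%). IntS6 had a signal of 525, IntS9 of 377 and IntS10 of 273, and IntS1 and IntS12 were not bound. Of the 7SK particle and P-TEFb, 2 of 4 were bound: bin3, the 7SK capping methyltransferase, with a signal of 569 and Larp7, which binds the 7SK end, with 237, while the kinase subunits Cdk9 and CycT were not. Of the Sm and LSm ring proteins 4 of 16 were bound (25%), led by CG10418, CG6610 and CG9344 with signals of 207, 153 and 148, and CG2021 and LSm-4 were not. Of the snRNP proteins 5 of 16 were bound (31.2%), led by Prp31, snRNP-U1-C and Sf3b1 with 282, 157 and 153, and Brr2 and hoip were not. Of the export and assembly factors 2 of 12 were bound (16.7%), La with 176 and icln with 127, and coil and csul were not. The lists differ in share, and none was tested against the rest.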

How the data were processed

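Chromatin immunoprecipitation was sequenced from 3 biological replicates of 1 group. Per the file headers and the deposited notes, the authors called regions on each replicate and on pooled reads and derived a thresholded list by the irreproducible discovery rate. Neither the aligner nor the caller is given in the sources used here. The deposited signal, the authors' own score per region, ranked regions within a list, and lists were not compared by signal. The deposited −log10 q-values were not used. The thresholded dm6 list was the 5035 pooled regions of highest signal. Lists on dm3 were not used. Genes came from Ensembl release 115 (BDGP6.54), transposable elements left out, and sequence from the RefSeq Release 6 genome, both on the dm6 assembly. Coordinates are 1-based.

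A summit within 500 bp of any TSS made a gene bound. Calls, counts and figures were made in Python 3.11.15 with NumPy 2.4.6, Biopython 1.88 and matplotlib 3.10.9, and the counting was tested on simulated data. All bound members and U6 genes are named, with the 5 unbound members nearest to a thresholded summit, coding genes with a TSS within 500 bp of a bound member's TSS or its summit, and up to 3 bound genes of highest signal and the first 2 unbound genes by name in each list. Other members and host genes named were chosen after their values were seen. The members and lists were chosen with earlier results of these data known. Nothing says how replicates differ beyond separate biosamples, depth is unknown, and no test was made over members. Alternatives were other distances, lists, overlaps and replicate support.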

Additional observations from a re-analysis of the deposited data

How the results depend on the processing

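The count of bound snRNA genes depended most on the list and on replicate support. With the pooled list before the threshold, 18 snRNA genes were bound, 15 of them of the Pol II type and 16 without a protein-coding TSS within 500 bp, through 19 regions, against 46.5% of all genes. With regions held by all 3 replicates, the counts were 4 snRNA genes, 2 Pol II-type genes, 4 without a coding TSS near and 3 regions, against 9.49% of all genes. Leaving out each replicate in turn, where a region had to hold a top summit of both others, gave 4 to 9 snRNA genes, 2 to 6 Pol II-type genes, 2 U6 genes each time, 4 to 8 without a coding TSS near and 3 to 8 regions. The low values came without replicate 1 (4 genes, 12.5%, against 10.5% of all genes) and without replicate 3 (4 genes, against 10%), where replicate 2 was required. Without replicate 2 there were 9 (28.1%, against 13.8%). The regions counted still came from the pooled reads of all 3 replicates. Within 250 bp, 1 U6 gene was bound. With regions above the list's median signal, 5 of 29 members without a coding TSS near (17.2%) and 5 regions were counted, against 9.55% of all genes. Distances of 250 and 1000 bp gave 7 and 10 snRNA genes (21.9% and 31.2%, against 13.4% and 20.8% of all genes). Counting any base of the region within 500 bp, or the distance to the gene body, left 9 snRNA genes (28.1%), while all genes rose to 18.8% and 23.3%, so that the gap narrowed. The rule that the summit be no nearer to a coding TSS was added after seeing the data. It gave 8 snRNA genes, and 7 of the 29 without a coding TSS near. The cause of these differences was not tested. No paired analysis was possible because there was 1 group.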
